A study of Mus musculus with 5 samples.

Results

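The genes described here encode the ligands of the TGF-beta superfamily, their receptors, the proteins that modulate them and a few of their transcriptional targets, measured in tumour cells of the mouse prostate. They were chosen by name, as every probe set of the array table whose only gene symbol is one of 35 listed genes. Of these, 32 were measured, by 71 probe sets in all and by more than 1 probe set for 22 genes, among 18193 genes in the table. Bmp3, Gdf15 and Spp1 were not analysed here. Where a gene has several probe sets, the one with the highest mean over the arrays stands for it.

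Tumours were dissociated on ice, epithelial tumour cells were captured with EpCAM beads, and their total RNA was hybridised to Affymetrix mouse arrays, with 1 array for each of 5 C57BL/6 mice. All mice carried the Probasin promoter driver, which is active in prostate epithelium, and floxed alleles that include Smad4. The 3 mice of the nDKO genotype were 15.86, 10.71 and 10.71 weeks old. The 2 mice of the nTKO genotype, which carried floxed Pygo2 in addition, were 31.43 and 16 weeks old. Age and genotype are therefore partly confounded, and no array of a normal prostate or of a tumour with intact Smad4 enters the comparison. The comparison asks which transcripts differ when Pygo2, a chromatin-binding co-activator of beta-catenin, is deleted as well.

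TGF-beta, activin and BMP ligands bind pairs of type II and type I receptor kinases at the cell surface. The type I receptor phosphorylates receptor-regulated Smads, which enter the nucleus together with Smad4 and there switch target genes such as the Id genes on or off. Secreted antagonists, latent binding proteins and decoy receptors limit how much ligand reaches the receptors. In prostate epithelium the pathway is known for restraining growth, and receptor signals can also run through routes that do not use Smad4.

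Pygo2 had a lower signal on both nTKO arrays (7.30 and 6.35) than on any nDKO array (8.62 to 8.72). Smad4 had a signal on all arrays, at 9.63, 9.88 and 9.88 in nDKO 1, 2 and 3 and at 9.76 and 10.37 in nTKO 1 and 2. Its 3 probe sets differed between the genotypes by 0.27 to 0.40 log2 units, with overlapping groups in each. Where these probe sets lie relative to the deleted parts is not known here, so they do not check the Smad4 deletion. Array medians lay between 4.94 and 4.98, and Pearson's r between arrays, across probe sets, was 0.987 to 0.996. Epcam, the antigen used for capture, had signals of 12.94 to 13.48. The summed signal of 8 endothelial markers was 28.02 and 29.13 in nTKO cells and 27.50 to 27.79 in nDKO cells. All 8 of these markers had mean signals below the array medians. The sum of 6 T cell markers, 2 of them below the array medians, was 28.24 and 28.19 in nTKO cells, against 27.27 to 28.02. Both lists are given because their sums did not overlap between the genotypes, while the sums of all other marker lists did. The part of endothelial cells and T cells in the results was not tested. In bulk samples of this kind, fewer cells of a type and less RNA per cell cannot be told apart.

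No member gene passed the test between the genotypes. In the limma fit over all genes, 0 of 32 members had an adjusted p under 0.05, as did 0.0% of all 18193 genes, and the smallest adjusted p of any gene was 0.853. At an unadjusted limma p under 0.05 there were 2 members, Bmp5 and Bambi, both with the higher mean in nTKO cells, against 3.79% of all genes (2.46% higher and 1.33% lower). That count was 0 without nDKO 2 (2.43% of all genes) and 6 without nTKO 2 (15.9% of all genes). Differences are given as the nTKO mean minus the nDKO mean on the log2 scale. The members' differences ran from -0.46 for Tgfb3 to 0.54 for Tgfbr3, with 17 above 0, 14 below and 1 at 0. Of all 18193 genes, 10912 were above 0 and 6963 below, so counts by direction lean to higher values in general. The members' median was 0.032, beside 0.028 for all genes.

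The 2 genotypes did not overlap, with both nTKO arrays on one side of all 3 nDKO arrays, in 10 of 32 members (31.25%), against 12.8% of all genes. With the nTKO values on top there were 6 of them (Bmp5, Tgfbr1, Tgfbr3, Bmpr1a, Bambi and Tgif1), a pattern held by 8.13% of all genes. Lower were 4 (Inha, Inhba, Bmpr2 and Ski), against 4.71% of all genes. Where the mean signal reached at least the gene median of 6.32, it was 6 of 19 members and 16.3% of all genes. Without nTKO 1 the count was 20 of 32, against 40.6% of all genes, and without nTKO 2 it was 19, against 50.3%, with 1 nTKO array left in each case. With 3 arrays against 2, an exact permutation test of 1 gene, two-sided, cannot give a p below 0.1. The counts therefore describe these 5 mice.

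**Figure D1:**
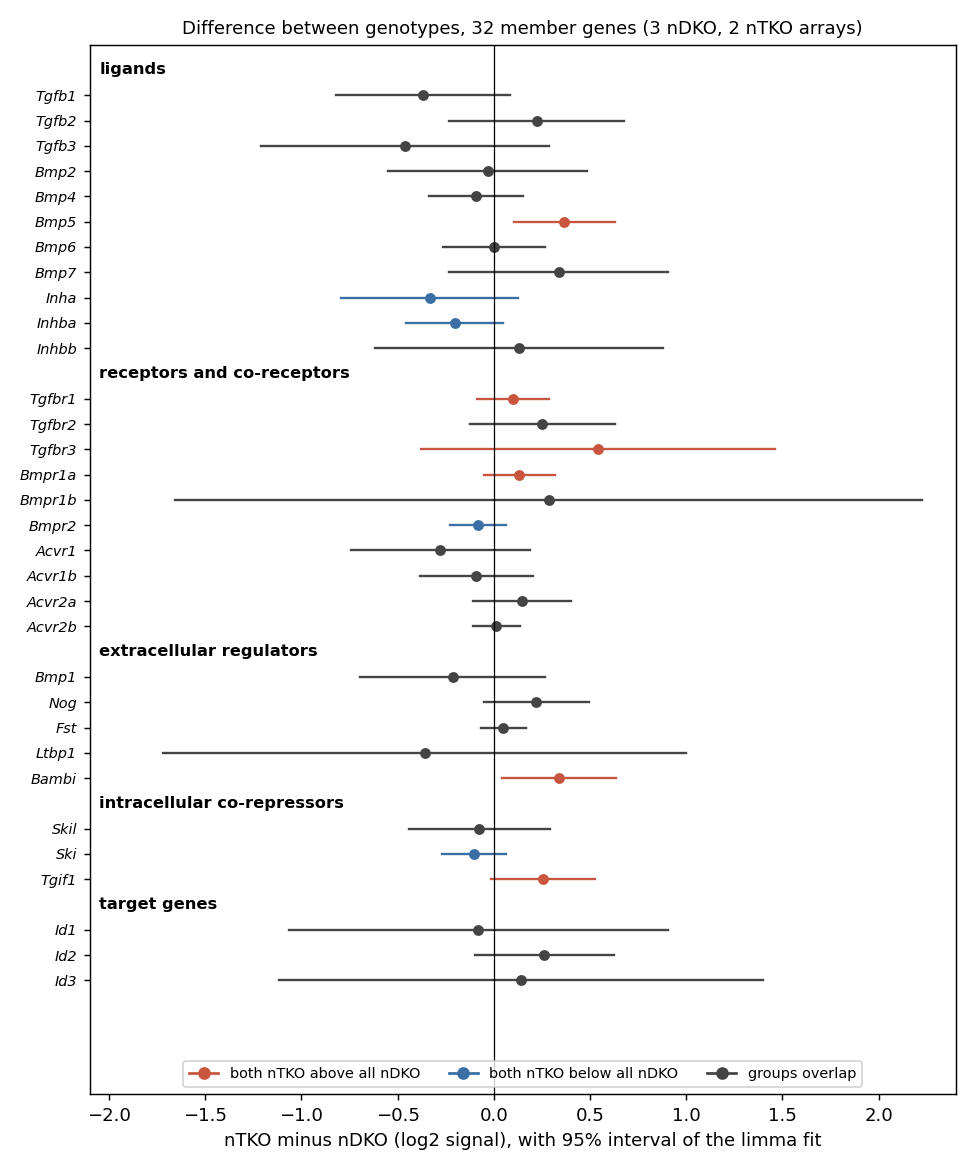
Difference between the genotypes (mean of 2 nTKO arrays minus mean of 3 nDKO arrays, log2 signal) for the 32 member genes, ordered by role, with the 95% interval of the limma fit as bars. Colours mark genes whose genotypes do not overlap. The interval leaves out 0 for Bmp5 (0.10 to 0.63) and Bambi (0.042 to 0.64), and is widest for Bmpr1b (-1.65 to 2.22).

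A RefSeq promoter table of the assembly GRCm38.p6 held 30 entries for 22 of the 32 measured members. The 4 shown here belong to members whose genotypes did not overlap, a pair with higher signals in nTKO cells (Bmp5 and Bmpr1a) and a pair with lower ones (Inha and Bmpr2). Each is the 250 bases before the start annotated in its entry, written 5′ to 3′ on the strand of the gene. The Inha stretch reads as coding bases of inhibin alpha up to the end of an exon. It therefore lies inside the gene and is not the promoter upstream of it. Capitals mark the letters CAGAC, the core of a Smad-binding element, or GGCGCC, a GC-rich element described for BMP-responsive Smads, searched on both strands. CAGAC appears as GTCTG where it lies on the opposite strand. The Bmp5 stretch lies at chr9:75775115-75775364 (plus strand), Bmpr1a at chr14:34502547-34502796 (minus strand), Inha at chr1:75507359-75507608 (plus strand) and Bmpr2 at chr1:59764029-59764278 (plus strand).
Bmp5: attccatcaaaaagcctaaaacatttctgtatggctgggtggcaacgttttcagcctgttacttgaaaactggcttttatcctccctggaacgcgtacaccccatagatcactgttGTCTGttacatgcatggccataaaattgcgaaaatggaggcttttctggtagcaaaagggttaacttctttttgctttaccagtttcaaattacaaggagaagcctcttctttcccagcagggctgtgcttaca
Bmpr1a: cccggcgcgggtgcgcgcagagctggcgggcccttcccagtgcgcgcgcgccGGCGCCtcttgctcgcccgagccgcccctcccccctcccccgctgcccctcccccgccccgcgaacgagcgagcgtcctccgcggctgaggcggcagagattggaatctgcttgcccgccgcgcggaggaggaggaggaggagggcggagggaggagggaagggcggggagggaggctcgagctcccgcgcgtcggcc
Inha: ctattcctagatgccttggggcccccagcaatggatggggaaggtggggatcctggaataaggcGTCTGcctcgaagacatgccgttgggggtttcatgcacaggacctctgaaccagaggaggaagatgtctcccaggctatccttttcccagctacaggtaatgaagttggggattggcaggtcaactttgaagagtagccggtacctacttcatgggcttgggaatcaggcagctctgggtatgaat
Bmpr2: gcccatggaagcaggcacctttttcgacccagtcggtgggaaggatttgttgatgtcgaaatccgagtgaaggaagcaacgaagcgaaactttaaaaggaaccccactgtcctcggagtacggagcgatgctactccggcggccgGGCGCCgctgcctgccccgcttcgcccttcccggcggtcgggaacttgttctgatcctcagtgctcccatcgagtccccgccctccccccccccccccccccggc
Bmp5 and Inha, a ligand with higher and a ligand subunit with lower signals in nTKO cells, each hold CAGAC once, and Bmpr1a and Bmpr2 each hold GGCGCC once. The match of Inha lies in coding bases. These genes were picked for their opposite directions, and a relation between letters and direction was not tested. Among the other members without overlap that have entries, Ski and Tgfbr1 hold GGCGCC. Tgfbr1 and Tgif1 hold CAGAC in some of their entries, and Inhba holds neither.

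Both motifs are common in promoters of this length. CAGAC was found in 16 of the 30 member entries (53.3%), from 12 genes, and in 42.2% of all 32851 entries. GGCGCC was found in 5 member entries (16.7%), those of Bmpr2, Tgfbr1, Ski, Id2 and Bmpr1a, and in 9.6% of all entries. The members' entries had a median GC content of 61.2%, against 52.4% for all entries and 66.8% for entries with GGCGCC. A match describes these letters and not a bound site, and nothing was measured on these promoters.

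The ligands split by direction. Of 11 measured, 4 had higher and 6 lower means in nTKO cells. In 3 the genotypes did not overlap (27.27%, against 12.8% of all genes). Bmp5, a ligand of the BMP branch, gave signals of 3.49, 3.66 and 3.78 in nDKO 1, 2 and 3 and of 3.99 and 4.03 in nTKO 1 and 2. The nTKO arrays were the 2 highest, and the difference was 0.37 (SE 0.097, limma adjusted p = 0.853), a fold of 1.29. A second Bmp5 probe set had 3.28, 3.59 and 3.5 against 4.35 and 3.79, again without overlap (0.61, SE 0.21), and the other differed by 0.058 with overlapping groups. All 3 probe sets lay below the median signal on every array.

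Of the inhibin and activin subunits, Inha and Inhba had lower means in nTKO cells and Inhbb a higher one. Inha encodes the alpha subunit of inhibin, which opposes activin, and gave 6.32, 6.00 and 5.99 in the nDKO mice, against 5.95 and 5.59 in the nTKO mice (difference -0.33, SE 0.17). The higher nTKO array was 0.04 below the lowest nDKO array, so the groups only just parted. Inhba, the beta A subunit that forms activin A, gave 6.03, 6.07 and 5.91 against 5.70 and 5.90 (-0.20, SE 0.093), parted by 0.01. Its second probe set, below the median signal on all arrays, had the opposite sign (0.13). Inhbb, the beta B subunit, gave 9.11, 9.38 and 9.22 against 9.78 and 8.96 (0.13, SE 0.28), so that the nTKO mice were at the top and at the bottom of the range.

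The 3 TGF-beta ligands differed in sign. Tgfb1 gave 5.95, 5.66 and 6.01 in nDKO 1, 2 and 3 and 5.33 and 5.68 in nTKO 1 and 2 (-0.37, SE 0.17), with nTKO 2 just inside the nDKO range. Its second probe set differed by 0.0033. Tgfb2 gave 4.66, 4.23 and 4.66 against 4.66 and 4.82, with 3 of 4 probe sets higher in nTKO cells (differences from -0.06 to 0.45) and all of them below the median signal. Tgfb3 gave 7.01, 6.41 and 6.41 against 6.41 and 5.89, with the highest value in nDKO 1 and the lowest in nTKO 2. Its difference was -0.46 (SE 0.28), and -0.20 without nTKO 2. In the 2 mice of like age, nDKO 1 at 15.86 weeks and nTKO 2 at 16 weeks, it was -1.12, and with log2 age as a covariate -1.07.

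Among the BMP ligands, Bmp7 had the highest signal in the oldest mouse. It gave 6.37, 6.07 and 6.35 in the nDKO mice, against 6.88 and 6.32 in the nTKO mice (0.34, SE 0.21), and its 3 probe sets were all higher on average in nTKO cells, by 0.053 to 0.47, with overlap in each. Bmp2 gave nearly equal values in the nDKO mice (6.03, 6.02 and 6.03), while the nTKO mice lay on either side of them (5.70 and 6.29). Bmp4 (3.55 to 3.84 over the 5 arrays) and Bmp6 (3.06 to 3.35) lay below the array medians throughout, with differences of -0.093 and 0.00.

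**Figure D2:**
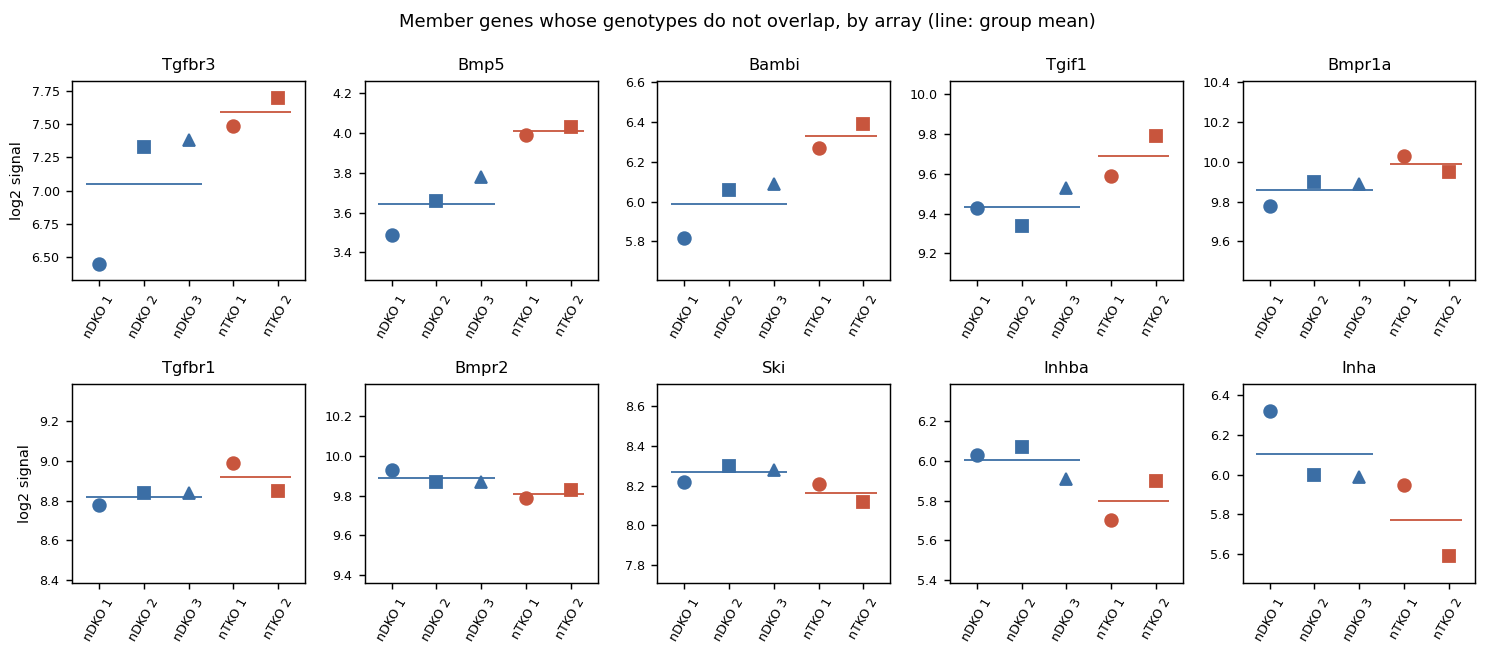
Log2 signal on each array for the 10 member genes whose genotypes do not overlap, with 3 nDKO arrays in blue, 2 nTKO arrays in red and lines at the group means. Each panel spans 1 log2 unit or slightly more and starts at its own level, and the nearest arrays of the groups are 0.01 apart for Tgfbr1, Inhba and Ski and 0.21 apart for Bmp5.

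Of the 10 receptors and co-receptors, 7 had higher and 3 lower means in nTKO cells. In 4 the genotypes did not overlap (40.0%, against 12.8% of all genes). Bmpr1a, a type I receptor for BMP ligands, was the member with the most probe sets on one side. The probe set that represents it (1425492_at) gave 9.78, 9.90 and 9.89 in nDKO 1, 2 and 3 and 10.03 and 9.95 in nTKO 1 and 2, a difference of 0.13 (SE 0.068). A further 3 probe sets separated the genotypes by more. The probe set 1425493_at gave 8.21, 8.20 and 8.14 against 8.74 and 8.53, a difference of 0.45 (SE 0.085). The probe set 1425491_at gave 8.05, 8.04 and 8.16 against 8.45 and 8.35 (0.32, SE 0.071). The probe set 1425494_s_at gave 7.94, 7.74 and 8.03 against 8.48 and 8.33 (0.50, SE 0.12). All 3 had both nTKO arrays above every nDKO array, with nTKO 1 the highest.

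The remaining Bmpr1a probe sets overlapped, with differences of 0.073 and -0.077, the latter below the median signal on all arrays. In the limma fit over all 45037 probe sets, the 3 with larger differences had unadjusted p of 0.00535, 0.0100 and 0.0110 and adjusted p of 0.799, 0.799 and 0.799. Probe sets of 1 gene share the RNA of the same mice and are not replicates, and why they differ in size was not tested. Over all 71 member probe sets, 16 had genotypes without overlap (11 higher and 5 lower in nTKO cells), against 12.2% of all probe sets (7.02% higher and 5.17% lower). Of these 71, 6 had an unadjusted limma p under 0.05, all higher, against 3.80% of all probe sets (2.17% higher and 1.63% lower), and 0 passed the adjusted threshold. Those 6 belong to Bmp5, Bmpr1a and Bambi.

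**Figure D3:**
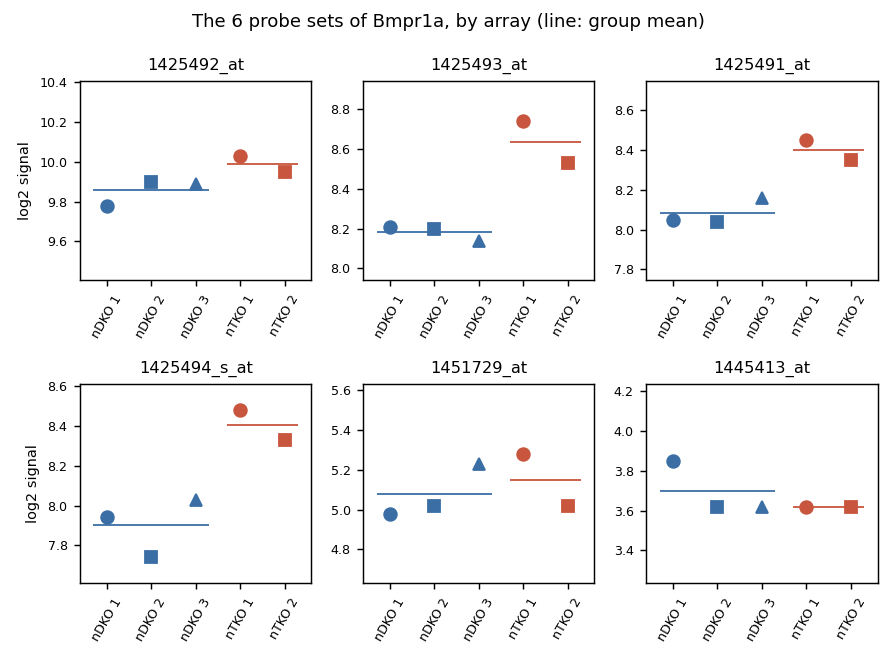
Log2 signal on each array for the 6 probe sets of Bmpr1a (3 nDKO arrays in blue, 2 nTKO arrays in red, lines at the group means), each on its own axis range of about 1 log2 unit. In 4 of them both nTKO arrays lie above every nDKO array, by differences of the means of 0.13 to 0.50, and in the other 2 the groups overlap.

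The other BMP receptors gave other patterns than Bmpr1a. Bmpr2, the type II partner, gave 9.93, 9.87 and 9.87 in the nDKO mice, against 9.79 and 9.83 in the nTKO mice. The groups were separate but the difference was small (-0.080, SE 0.054), and its other probe sets differed by 0.047 and -0.06 with overlap. Bmpr1b, another type I receptor, varied most of all members between mice, at 5.79, 7.08 and 7.89 in nDKO 1, 2 and 3 and 6.80 and 7.61 in nTKO 1 and 2. That is a range of 2.10 log2 units, all of it within the nDKO group (SD 1.06, n = 3), and the difference of 0.29 (SE 0.71) was -0.28 without nDKO 1. Mice nDKO 1 and nTKO 1, each the oldest of its genotype, had the lowest Bmpr1b values. Its other probe sets lay below the median signal on all arrays and differed by -0.027 and 0.10.

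The TGF-beta receptors had higher means in nTKO cells. Tgfbr1, the type I receptor of TGF-beta, gave 8.78, 8.84 and 8.84 against 8.99 and 8.85, separate by 0.01. Its 3 probe sets differed by 0.098 to 0.11, the other 2 with overlap and below the median signal. Tgfbr2, the type II receptor, gave 10.82, 11.06 and 11.11 against 11.11 and 11.39, with nTKO 1 equal to nDKO 3. Its difference was 0.25 (SE 0.14), while the other probe sets gave -0.23 and 0.093. Tgfbr3, the co-receptor betaglycan, gave 6.45, 7.33 and 7.38 against 7.49 and 7.70. Both nTKO arrays were higher, but nDKO 1 stood below the other nDKO mice, and the difference of 0.54 (SE 0.34) was 0.24 without it and 1.25 between nDKO 1 and nTKO 2 alone. The second Tgfbr3 probe set differed by 0.12 with overlap.

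The activin receptors had overlapping genotypes in the probe sets that stand for them. Acvr1, a type I receptor for BMPs and activins, gave 8.23, 7.92 and 7.96 in the nDKO mice, against 7.96 and 7.56 in the nTKO mice (-0.28, SE 0.17). Its 3 probe sets all had lower means in nTKO cells, and 1 of them had separate groups, at 7.27, 7.14 and 7.14 against 7.07 and 7.01. Acvr1b (9.48 to 9.78 over the arrays), the type I receptor of activin, differed by -0.090. The type II receptors Acvr2a (8.21 to 8.53) and Acvr2b (5.57 to 5.61) differed by 0.15 and 0.013. Acvr2b had the same value on 4 of 5 arrays, and its other 2 probe sets differed by -0.0067 and 0.023.

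Among the 5 extracellular regulators, Bambi was the member with separate genotypes. Bambi is a membrane pseudoreceptor that lacks a kinase and dampens TGF-beta and BMP signals. It gave 5.82, 6.06 and 6.09 in nDKO 1, 2 and 3 and 6.27 and 6.39 in nTKO 1 and 2, all nTKO above all nDKO. The difference was 0.34 (SE 0.11, limma adjusted p = 0.853), a fold of 1.27. Bambi has 1 probe set here, so no second probe set checks this value.

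Ltbp1, which holds latent TGF-beta in the matrix, was high in the oldest mouse of each genotype. It gave 9.23, 7.98 and 8.09 in the nDKO mice, against 8.46 and 7.69 in the nTKO mice. The difference of -0.36 (SE 0.50) was 0.04 without nDKO 1 and 0.027 without nTKO 2, and -1.54 between nDKO 1 and nTKO 2 alone. Its other 2 probe sets, below the median signal, also had their highest value in nDKO 1. Noggin (Nog), a secreted BMP antagonist, gave 4.09, 4.0 and 4.24 against 4.42 and 4.24, all below the array medians (0.22, SE 0.10). Follistatin (Fst), which binds activin, lay between 3.69 and 3.79. Bmp1, a procollagen protease and not a BMP ligand, gave 7.59, 7.13 and 7.13 against 7.01 and 7.13. Its difference was -0.21 (SE 0.18), and the other probe sets gave -0.48 and 0.047.

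Ltbp1, Bmp7 and Skil were higher in nDKO 1 and nTKO 1 than in the other 3 mice, and Bmpr1b was lower. That is 3 and 1 of the 32 members, smaller shares than the 14.6% and 9.91% of all genes. The pattern is therefore not particular to the members. These 2 mice were the oldest of their genotype. They also had the highest signals of squamous epithelium markers, with a median over 10 genes at 10.79 on the array of nDKO 1 and 9.15 on that of nTKO 1, while the other arrays gave 5.47 to 6.01. Seminal vesicle markers had their lowest summed signal over 7 genes in nDKO 1 (59.94, against 72.59 to 91.05), the mouse with the lowest Bmpr1b and Tgfbr3. The sum of 6 neutrophil markers was highest in nTKO 1 (50.72, against 36.55 to 42.03). The part of these cells in the members' values was not tested.

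**Figure D4:**
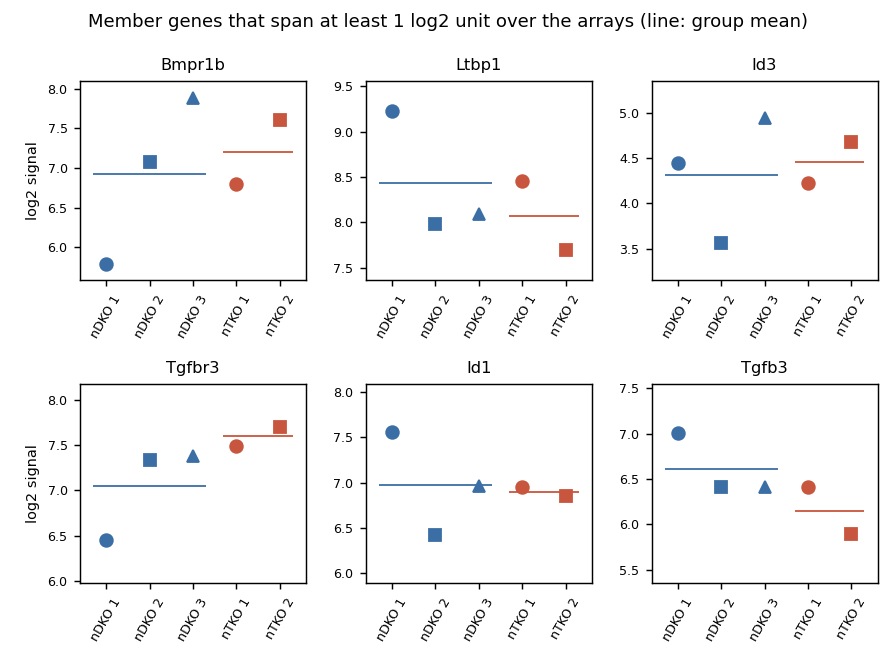
Log2 signal on each array for the 6 member genes that span at least 1 log2 unit over the 5 arrays (3 nDKO in blue, 2 nTKO in red, lines at the group means), each on its own axis range of about 2.2 log2 units. In 5 of them, all but Id3, nDKO 1 holds the highest or the lowest value, as for Bmpr1b (5.79) and Ltbp1 (9.23).

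The intracellular co-repressors, which bind Smads and limit transcription of their targets, numbered 3. Of these, 2 had separate genotypes, in opposite directions (66.67%, against 12.8% of all genes). Tgif1 gave 9.43, 9.34 and 9.53 in the nDKO mice, against 9.59 and 9.79 in the nTKO mice (0.26, SE 0.099). Ski gave 8.22, 8.30 and 8.28 against 8.21 and 8.12 (-0.10, SE 0.061), separate by 0.01, and its second probe set overlapped at -0.11. Skil, also called SnoN, gave 10.34, 10.25 and 10.25 against 10.40 and 10.01, with the nTKO mice at the top and bottom of the range. Its other probe set differed by 0.073.

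The Id genes, direct targets of BMP signalling through Smads and inhibitors of basic helix-loop-helix factors, had overlapping genotypes in all 3 cases. Id1 gave 7.56, 6.42 and 6.96 in nDKO 1, 2 and 3 and 6.95 and 6.85 in nTKO 1 and 2, so that the nDKO mice held both ends of the range. Id2 gave 8.79, 9.13 and 8.98 against 9.33 and 9.13 (0.26, SE 0.13), with nTKO 2 equal to nDKO 2. A second Id2 probe set gave 8.78, 9.17 and 9.04 against 9.16 and 9.19 (0.18), and the third differed by -0.07 below the median signal. Id3 gave 4.44, 3.56 and 4.94 against 4.23 and 4.68, below the array medians, and differed by 0.14 (SE 0.46). Id1 and Id3 were both lowest in nDKO 2, which also had the lowest summed signal of 10 macrophage markers (78.48, against 80.35 to 89.15 on the other arrays). Their part in the Id values was not tested.

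The remaining genes of the pathway were read from 7 further lists with 114 measured genes. None passed the adjusted threshold in limma, and 68 had higher and 44 lower means in nTKO cells. The genotypes did not overlap in 13 (11.4%, with 9 higher and 4 lower), against 12.8% of all genes. The median difference of the 114 genes was 0.035. Their range ran from -0.80 for Dcn to 0.94 for Sostdc1, both with overlapping genotypes. Bgn, the matrix proteoglycan biglycan, which binds BMP ligands, was the one gene with separate groups and a difference of at least 0.5 in size. It gave 5.07, 4.80 and 5.26 against 5.66 and 5.69 (0.63, SE 0.15, adjusted p = 0.853). Of 10 fibroblast markers, 7 had mean signals below the array medians, with sums of 46.34 to 46.96 in nDKO and 45.11 and 47.45 in nTKO cells. By mean, 6 were higher and 4 lower in nTKO cells. Dcn spanned the widest range in these sums (6.41 to 9.52). Col3a1, below the array medians, was the one without overlap, at 2.77, 2.66 and 2.92 against 3.44 and 3.09. The part of fibroblasts in the Bgn values was not tested.

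At an unadjusted limma p under 0.05, 5 of these 114 genes were counted, against 3.79% of all genes, and the 4 besides Bgn were chosen after their values were seen. Skor1, a neural co-repressor, gave 3.24, 3.17 and 3.08 against 3.53 and 3.53, and Bmper, a secreted BMP modulator, gave 2.91, 3.0 and 2.82 against 3.25 and 3.08. Both lay below the median signal on all arrays. Mmp2, a gelatinase, gave 5.15, 5.28 and 5.11 against 5.46 and 5.55. Junb, an immediate early transcription factor, was the one with lower signals in nTKO cells, at 8.13, 7.92 and 8.10 against 7.71 and 7.81.

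The lists of Smads and other ligands held further genes with separate groups. Of 25 Smads and intracellular regulators, 16 had higher and 7 lower means. In 4 the genotypes did not overlap (16.0%, 2 in each direction), against 12.8% of all genes. The Smad4 probe set was not among them. Smad5, a receptor-regulated Smad of the BMP branch chosen here after its values were seen, gave 8.06, 8.23 and 8.06 against 7.61 and 8.0 (-0.31, SE 0.14). Of 16 other ligands, 13 had higher and 3 lower means, while 10912 of all 18193 genes were higher and 6963 lower. Separate groups were seen in 3 of the 16 (18.75%), and no difference exceeded 0.32 in size. Of 22 further TGF-beta targets, 13 had higher and 9 lower means, and of 15 further BMP targets 8 and 6. Separate groups were seen in 3 (13.64%) and 0 of them. Other receptors (5 higher and 6 lower of 11) had 0 with separate groups.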

How the data were processed

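The authors deposited a log2 signal with 2 decimals for each probe set on each array. RMA and the Transcriptome Analysis Console are named in the submitters' processing notes, and their versions are not given in the sources used here. Background is subtracted in RMA, which also equalises the distributions of the arrays and summarises probes. For this reason a shift shared by most genes would not show, and dim probe sets are drawn to a common floor. For 26% of genes, and for 6 of 32 members, at least 3 arrays had the same value.

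Probe sets with exactly 1 symbol in the platform annotation (34945 of 45037; 932 had several and 9160 none) gave 18193 genes, each by its probe set with the highest mean. The comparison of nTKO with nDKO was fitted over all genes in R 4.3.3, by lmFit and eBayes (intensity trend) of limma 3.58.1, two-sided, with a Benjamini-Hochberg adjusted p threshold of 0.05, no filter and no covariate. A second fit covered all probe sets. The scripts were tested on simulated data. Each array is a separate mouse per the labels, and their number limits the precision. A member is described on every array where its genotypes do not overlap, its difference is at least 0.5, its range is at least 2 log2 units or its probe sets differ in direction. Other pathway genes are named where the genotypes do not overlap and the difference is at least 0.5. Members and lists were chosen with earlier results of these data known. Alternatives covered normalization, centring, a filter at the median gene level, the eBayes settings, array weights, log2 age, the replicate number, the probe sets used, and leaving out mice. Promoters came from a RefSeq table of GRCm38.p6. No scanner files were used, and some items are not reported here.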

Additional observations from a re-analysis of the deposited data

How the results depend on the processing

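No gene had an adjusted limma p under 0.05 in any alternative, and the smallest, without nTKO 2, was 0.0513. Of 499 member differences recomputed, 22 turned their sign and 477 did not, and 23 of 32 members had none that turned. Part of this was fixed in advance, as changed eBayes settings leave the differences as they are. Bmp6, with a difference of 0, could not turn and ran from -0.065 to 0.08. The count of members with an unadjusted limma p under 0.05 was 0 of 19 above the median gene level, 6 of 71 over all probe sets, 8 with log2 age as a covariate (10.4% of all genes) and 9 without the oldest mouse of each genotype (16.5% of all genes), and 0 to 6 with single mice left out. With age, these were Bmp5, Tgfbr2 and Bambi (higher in nTKO cells) and Tgfb3, Inha, Acvr1, Ltbp1 and Skil (lower). The replicate number was also fitted as a block, with nDKO 3 left out because its number has no nTKO array. This gave 8 members at an unadjusted limma p under 0.05 (5.04% of all genes). Leaving out nDKO 3 with no block gave 3 (3.0% of all genes). In both, 13 members were without overlap (20.3% of all genes), as a block does not change overlap. Deviations of same-numbered arrays correlated at 0.424 and 0.338, and those of nDKO 3 and nTKO 2, with different numbers, at 0.31. With 2 nTKO arrays, the deviation of one is the other with its sign turned. These values are therefore not independent and cannot decide on pairing. The labels give separate mice, so the numbers are not taken to pair them, and the block changed no other count by over 1.5 times. Members without overlap numbered 6 of 19 above the median gene level (16.3% of all genes there) and 16 of 71 probe sets (12.2% of all probe sets). Without nDKO 1, 2 and 3 in turn they numbered 11, 13 and 13 (25.1%, 18.1% and 20.3% of all genes). Without nTKO 1 and without nTKO 2 they numbered 20 and 19 (40.6% and 50.3% of all genes). Without the oldest mice there were 21 (56.3% of all genes).

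With log2 age as a covariate, Bmp2 was 0.33, Bmp7 -0.088, Inhbb -0.28 and Acvr2a -0.022, each with the sign turned. Without the oldest mice, Bmp2 was 0.27, Inhbb -0.34 and Id1 0.16. In the pair of like age, Bmp2 was 0.26, Bmp7 -0.05 and Inhbb -0.15. With array weights, Bmpr1b was -0.086 and Id1 0.17. With single mice left out, Bmp2 ranged from -0.33 to 0.26, Inhbb from -0.28 to 0.54, Bmpr1b from -0.28 to 0.77, Ltbp1 from -0.74 to 0.04, Skil from -0.27 to 0.12, Id1 from -0.36 to 0.21, Id3 from -0.24 to 0.46 and Smad4 from -0.037 to 0.57. The cause was not tested. Fits with 1 array left in the nTKO group assume that it varies like the nDKO arrays. With 5 mice, differences of the sizes seen here were within the spread for most members, and signals below the array medians limit Bmp4, Bmp5, Bmp6, Tgfb2, Nog, Fst and Id3.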

Other observations

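No mouse stood at one end for most members. The single highest of the 5 values fell in nDKO 1 for 8 members, nDKO 2 for 2, nDKO 3 for 5, nTKO 1 for 8 and nTKO 2 for 7, and was tied between arrays for 2 (Fst and Acvr2b). The single lowest fell in nDKO 1 for 8, nDKO 2 for 9, nDKO 3 for 1, nTKO 1 for 5 and nTKO 2 for 9. The mouse nDKO 1 therefore held both many of the highest values (Ltbp1 at 9.23, Id1 at 7.56 and Tgfb3 at 7.01) and many of the lowest (Bmpr1b at 5.79, Tgfbr3 at 6.45 and Bambi at 5.82). The median signal over the 32 members was 6.73, 6.75 and 7.05 in nDKO 1, 2 and 3 and 6.92 and 6.99 in nTKO 1 and 2.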
